A study of Bos taurus with 20 samples.

Results

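The level of 9 imprinted genes was followed across the cells of the bovine ovarian follicle: NNAT, PEG10, MEST, DLK1, PLAGL1, PEG3, CDKN1C, PHLDA2, and GRB10. They were chosen by name from genes that are established as imprinted in mammals. No measured value was used to select them, but earlier results of these data were known when they were chosen. Probes were assigned to a gene when their name, without the number of the transcript, was that of the gene. This found 8 of the 9 genes among the 22550 genes or transcripts of the array. The probes of the remaining gene are named DLK in the files, and their RefSeq accession belongs to DLK1, so all 9 genes were described.

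An imprinted gene is transcribed mainly from the copy inherited from 1 parent, because DNA methylation placed in the egg or the sperm marks the silent or the active copy. NNAT, PEG10, MEST, DLK1, PLAGL1, and PEG3 are known as genes of the paternal copy, whereas CDKN1C and PHLDA2, and GRB10 in most tissues, are expressed from the maternal copy. Several of the maternally expressed ones restrain growth, and the family is best known for its part in the growth of the fetus and the placenta. The oocyte is where maternal imprints are laid down. The array measures the sum of both copies, so nothing here tells which copy was transcribed.

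The arrays came from theca cells (TH), the outer wall of the follicle, mural granulosa cells (GC), cumulus cells (CC), which surround the oocyte, and oocytes (OO), all of them immature cells from bovine follicles of 3 to 6 mm. A further group was made of CC taken 4 h into in vitro maturation (IVM), the culture in which the oocyte resumes meiosis. Each group had 4 arrays, described as biological replicates. The number of animals or cells behind an array is not stated in the labels or methods used, so p-values measure only the spread between these arrays. TH were scraped from the wall of the follicle, a procedure that can take along other cells of the wall.

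All levels are log2 of the processed signal relative to the 75th percentile of each array, so that 0 is the brightness of that percentile. Levels are given as mean ± SD (n = 4) and differences as mean ± SE. Levels are comparable between groups for 1 gene, but not between genes. Differences were tested with limma, with the Benjamini–Hochberg adjustment taken over 22550 genes. A difference was called when the adjusted p was below 0.05. In bulk RNA, fewer cells of a type and less RNA per cell cannot be told apart.

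Between 49.3 and 68.8% of probes were well above background per array, the lowest value being that of OO replicate 2. The 5 theca markers summed to 575–830 times the 75th percentile in TH and to 29.8–115 in GC. Their sums were 25.2–32.6 in CC and 1.16–1.70 in OO. The 4 markers of granulosa and cumulus cells reached 381–393 in CC and 110–450 in GC, but only 18.1–33.4 in TH and 2.20–3.02 in OO. The 6 oocyte markers summed to 248–330 in OO and to at most 3.01 in any CC array. TH also carried endothelial markers (sum of 5, 2.70–5.59, against 0.133–0.423 in GC and CC), although CDH5 was well above background on only 1 of 4 TH arrays. It also carried the 4 markers of pericytes and smooth muscle (25.6–43.2, against 1.05–7.37) and the 5 leukocyte markers (1.36–2.72, against 0.140–1.27). The 2 hemoglobin genes summed to 11.7–23.6 in TH and 14.4–47.7 in GC and CC, but the signal of HBA made up nearly all of this sum. Of the 2 genes, 1 was called higher and 1 lower in TH than in GC with CC. The mean log2 level of HBB was highest for TH (−5.07, well above background on 4 arrays). GC followed with −5.27 (1 array), then CC with −7.12 (0 arrays). The sum therefore does not rank these cells by their content of blood. In OO the endothelial and pericyte lists summed to 2.91–4.43 and 7.80–12.8, although CDH5 and RGS5 were not well above background there on any array. Each of the labels TH, GC with CC, and OO was matched by its own list.

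The 9 genes were covered by 26 spots with 21 different sequences, none of which is shared with another gene of the array. On UMD 3.1, the cattle assembly of the array files, the transcripts lie at chr13:67118490-67120879 (NNAT), chr4:11912009-11921418 (PEG10), chr4:95066962-95079685 (MEST), chr21:67274800-67283089 (DLK1), chr9:82419235-82420458 (PLAGL1), chr29:49368787-49370785 (CDKN1C), chr29:49329504-49330559 (PHLDA2), and chr4:5104899-5244348 (GRB10). These spans are those of whole transcripts and not of the 60 bases of a probe. CDKN1C and PHLDA2 therefore lie close together on chromosome 29. For these 8 genes the chromosome is also that of the gene in the RefSeq table.

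The transcripts that the array names PEG3 were an exception. They lie at chr7:15405809-15446823 on UMD 3.1, overlap ZNF266, and stand between ZNF177 and FBXL12, whereas RefSeq places PEG3 on another chromosome next to ZIM2. No probe of the array carries a RefSeq accession of PEG3. PEG3, ZNF266, and ZNF177 encode zinc finger proteins, DNA-binding proteins of a very large family. The sequences of these probes are shown because the identity of the transcript rests on them, and the capitals in the third mark bases that code for the linker between adjacent zinc fingers.
PEG3 a: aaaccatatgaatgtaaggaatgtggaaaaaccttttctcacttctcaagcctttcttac
PEG3 b: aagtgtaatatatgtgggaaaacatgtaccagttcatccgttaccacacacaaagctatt
PEG3 c: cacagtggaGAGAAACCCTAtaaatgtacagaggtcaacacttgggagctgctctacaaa
PEG3 d: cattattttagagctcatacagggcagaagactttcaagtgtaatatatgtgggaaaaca
The run GAGAAACCCTA, searched on the printed strand, was found in 17 of the 50909 different probe sequences of the array (0.0334%), and 12 of those 17 were among the 690 sequences whose gene is named as a zinc finger gene. In what follows, PEG3 stands for the transcripts that the array gives this name. The files thus place these transcripts at ZNF266 and not where RefSeq has PEG3, and no accession ties them to that gene. They are still included as PEG3 in every count of the imprinted genes below. Each such count therefore holds a member that may not be an imprinted gene. Whether these probes also detect RNA of the imprinted gene was not tested.

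DLK1 had 2 probes, and these did not measure the same thing. Probe A ends in the bases with which probe B begins, so that the sequences overlap by the 26 bases in capitals. The last 30 bases of probe A and the first 30 bases of probe B are shown because the level of DLK1 depends on which of them is read.
DLK1 A: gtgtGCAACCAACGTAATTGCCAGATGAAT
DLK1 B: GCAACCAACGTAATTGCCAGATGAATcctc

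Sequences are also given for NNAT, PHLDA2, GRB10, and CDKN1C, to which several of the results below refer. For the first 3 of these genes they are the first 30 bases of each probe, and for CDKN1C 1 of its 2 probes is shown whole.
NNAT a: ctaaaaataaaaaagtacctcccctgtctc
NNAT b: ctaattgtaattgctaattgtaatgattga
NNAT c: tagattgtaagctcctggaggacagggacc
CDKN1C a: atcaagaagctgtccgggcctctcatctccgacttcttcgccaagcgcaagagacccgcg
PHLDA2 a: gctacataattagctacctgtgtatttatt
PHLDA2 b: tcttaacgtttgtactccaccaccattcca
GRB10 a: cgtggtatagacactgtattttagttgaca
GRB10 b: ttagttgacaagacacactctacttatttc

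All 9 genes differed among TH, GC, CC, and OO in the F-test. This test called 71.3% of all genes of the array, so that the count of 9 of 9 has little to set it apart. The pairs of cell types called 7 of 9 genes between TH and GC (26.3% of all genes), 7 between TH and CC (31.8%), 8 between TH and OO (64.6%), 5 between GC and CC (9.88%), 7 between GC and OO (68.6%), and 8 between CC and OO (63.7%), which made 42 calls in all. The cell type with the highest level was OO for PHLDA2, PLAGL1, and PEG3, TH for DLK1, GRB10, and CDKN1C, and GC for NNAT, PEG10, and MEST. CC had the highest level of none of these genes among the 4 cell types.

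**Figure D1:**
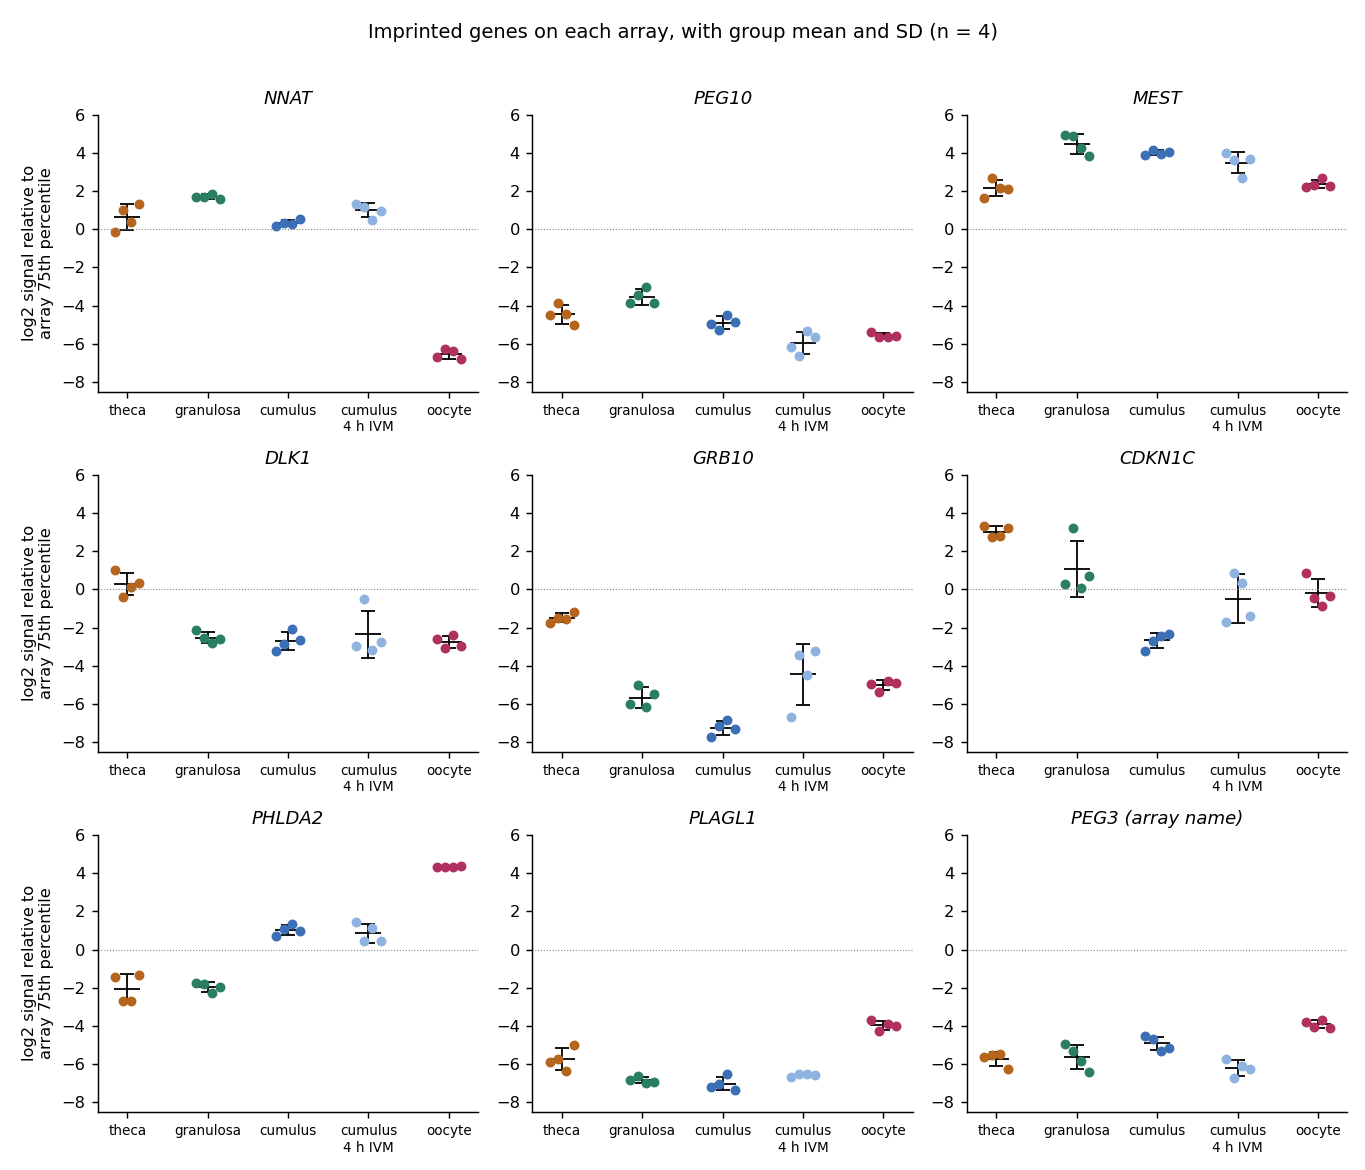
Level of the 9 imprinted genes on each of the 20 arrays, as log2 signal relative to the 75th percentile of the array (vertical axis), for TH, GC, CC, CC after 4 h of IVM, and OO (horizontal axis). Points are arrays, and bars give the mean and SD of 4 arrays. NNAT in OO lies at −6.54, far below the somatic cells, PHLDA2 in OO lies at 4.33, far above them, and GRB10 in TH lies at −1.49, above every other group.

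The comparison of the oocyte with the somatic cells asked which of these genes differ between the germ cell and its surroundings. In OO, 3 of the 9 genes were higher than in the somatic cells, taken as the mean of their 3 groups (PHLDA2, PLAGL1, and PEG3). Another 4 were lower (NNAT, PEG10, MEST, and DLK1). Of these, DLK1 was called against TH but not against GC or CC, and MEST was called against GC and CC but not against TH. The median difference was −0.67 over the 9 genes. Over all genes 32.9% were called higher and 38.3% lower, with a median difference of −0.52. The OO arrays did not overlap with the somatic arrays for 5 of the 9 genes, against 45.9% of all genes. The counts thus do not stand apart from the array, and the size of the differences of NNAT and PHLDA2 is the main observation.

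NNAT, which encodes neuronatin, a small membrane protein of the endoplasmic reticulum, was far lower in OO than in the somatic cells. Its level in OO was −6.70, −6.26, −6.40, and −6.80 on replicates 1 to 4. In GC it was 1.69, 1.70, 1.88, and 1.58, in CC 0.19, 0.32, 0.28, and 0.56, and in TH −0.16, 1.02, 0.40, and 1.35. All OO arrays thus lay below all 12 somatic arrays, and in OO only 1 of the 4 spots was well above background on as many as 3 of 4 arrays. The measured difference was −7.44 ± 0.21 (adjusted p = 7.67e-14), and the 4 spots gave differences from −8.00 to −6.38. As these values rest on signals near background in OO, the fold was also taken against the lowest detectable signal of each OO array, and by this NNAT was at least 101-fold lower. Within slides 1 and 2 it was −7.27 and −7.61, and it was smaller with normexp, a model of the background that leaves a positive signal on every spot (−5.33). Among the somatic cells, NNAT was 2.08-fold higher in GC than in TH (adjusted p = 0.00632) and 2.60-fold higher in GC than in CC (adjusted p = 0.00303), while TH and CC did not differ beyond their spread (0.32 ± 0.26, adjusted p = 0.438).

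MEST, which encodes an enzyme of the hydrolase family, was well above background on all 20 arrays. Its level was 4.96, 4.86, 4.25, and 3.82 in GC, 3.89, 4.18, 3.93, and 4.07 in CC, 1.65, 2.69, 2.17, and 2.09 in TH, and 2.21, 2.35, 2.68, and 2.28 in OO. The cells of the inner follicle thus lay above TH and OO without overlap. GC and CC did not differ beyond their spread (adjusted p = 0.334), nor did TH and OO (adjusted p = 0.424). TH was lower than GC by −2.32 ± 0.26 (adjusted p = 6.26e-06), and MEST was 4.26-fold higher in GC than in OO (adjusted p = 2.56e-06). Against the mean of the somatic cells, OO was lower by −1.17 ± 0.21 (adjusted p = 0.000121), although its arrays overlapped with those of TH. Both probes of MEST gave nearly the same difference, −1.18 and −1.15.

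PEG10, which derives from a retrotransposon and is needed for the placenta, was a dim gene here. Its level was −3.55 ± 0.40 in GC, −4.46 ± 0.48 in TH, −4.90 ± 0.34 in CC, and −5.55 ± 0.13 in OO. GC was 1.88-fold above TH (adjusted p = 0.0143) and CC 1.57-fold above OO (adjusted p = 0.0351), whereas TH and CC did not differ beyond their spread (adjusted p = 0.226). In OO the values −5.36, −5.64, −5.64, and −5.57 lay below all somatic arrays, the lowest of which was at −5.30. The difference of OO from the somatic cells was −1.25 ± 0.21 (adjusted p = 5.48e-05).

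PHLDA2, a small protein with a pleckstrin homology domain that restrains placental growth, was the opposite of NNAT. In OO its level was 4.32, 4.31, 4.31, and 4.37, an SD of 0.03. In CC it was 0.70, 1.10, 1.34, and 0.95, in GC −1.74, −1.80, −2.30, and −1.96, and in TH −1.43, −2.71, −2.70, and −1.35. The OO arrays thus lay above the CC arrays, and these above GC and TH, without overlap. OO exceeded CC 9.89-fold (adjusted p = 5.05e-08), GC 77.5-fold (adjusted p = 2.80e-11), and TH 83.1-fold (adjusted p = 2.21e-11). GC and TH did not differ beyond their spread (−0.10 ± 0.29, adjusted p = 0.830). The 4 spots of both probes gave differences between OO and the somatic cells from 5.20 to 5.39, and within slides 1 and 2 the difference was 5.30 and 5.34.

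PLAGL1, a zinc finger transcription factor that can arrest the cell cycle, was not well above background on any array of GC, CC, or CC after IVM. In OO its level was −3.67, −4.27, −3.91, and −4.02, with 3 of 4 arrays well above background, and in TH it was −5.90, −5.73, −6.38, and −4.99, with 2 of 4. The OO arrays lay above all somatic arrays. As GC and CC give only a bound, PLAGL1 was at least 2.09-fold higher in OO than in GC (adjusted p = 6.80e-08) and at least 2.72-fold higher than in CC (adjusted p = 3.17e-08). Such a bound divides the mean of the brighter group by a floor, for which each array of the dim group entered with its measured value or with the lowest detectable signal, whichever was larger. By the same bound, OO was at least 2.39-fold above TH (adjusted p = 1.53e-05), where 2 of 4 arrays were well above background.

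PEG3, as the array names it, was also dim. Its level was −3.82, −4.07, −3.67, and −4.12 in OO, −4.92 ± 0.36 in CC, −5.62 ± 0.64 in GC, and −5.73 ± 0.38 in TH. OO lay above all somatic arrays, by 1.50 ± 0.24 above the mean of the somatic cells (adjusted p = 3.59e-05). The spots of the 4 sequences gave differences from 0.54 to 2.16. Only 3 of 4 TH arrays and 2 of 4 GC arrays were well above background, so no fold is given. GC did not differ beyond its spread from CC (adjusted p = 0.172) or from TH (−0.10 ± 0.29 for TH minus GC). For PLAGL1 and PEG3 the call depended on the background. With normexp, the differences of OO from the somatic cells were −0.23 (adjusted p = 0.128) for PLAGL1 and −0.21 (adjusted p = 0.239) for PEG3. The median over all genes was −1.30 with that setting, so both genes still lay above the typical gene of the array.

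**Figure D2:**
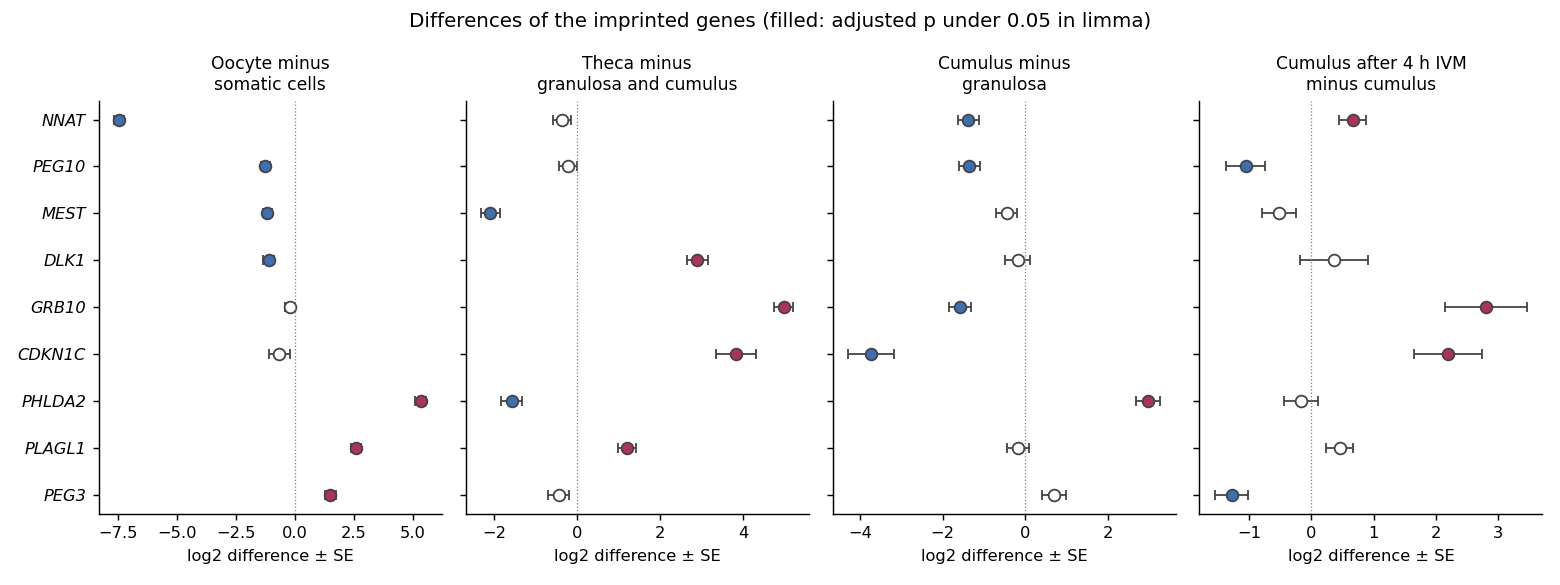
Log2 differences (horizontal axis) of the 9 imprinted genes (vertical axis) in 4 comparisons, with bars of ± SE from limma. Filled points have an adjusted p below 0.05, red where the first group was higher and blue where it was lower, and open points were not called. NNAT at −7.44 and PHLDA2 at 5.32 are the extremes in the oocyte, and GRB10 has the highest fitted value in theca, 4.97, which rests on GC and CC arrays of which 2 of 8 were well above background.

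The comparison of TH with GC and CC asked which of these genes mark the wall of the follicle against the cells inside it. GRB10, CDKN1C, DLK1, and PLAGL1 were higher in TH, and MEST and PHLDA2 were lower, which made 6 of 9 genes. Over all genes 32.7% were called, 14.3% higher and 18.5% lower. The median difference was −0.23 over the 9 genes and −0.11 over all genes. The arrays of TH did not overlap with those of GC and CC for 4 of the 9 genes, against 20.7% of all genes. Markers of endothelium, of pericytes and smooth muscle, and of leukocytes were higher in TH as well, with 5 of 5, 4 of 4, and 4 of 5 genes called. Of the endothelial markers, CDH5 was well above background on only 1 of 4 TH arrays. The part of these markers in the differences of TH was not tested.

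GRB10, an adaptor protein that dampens signalling of the insulin and IGF receptors, was higher in TH. Its level there was −1.74, −1.49, −1.54, and −1.18. In GC it was −6.02, −4.99, −6.17, and −5.49, and in CC −7.73, −7.15, −6.82, and −7.33, where no array was well above background. TH lay far above both. Only 2 of the 8 arrays of GC and CC were well above background, so that TH was at least 13.2-fold higher than both together (adjusted p = 4.75e-10), and the fitted difference of 4.97 ± 0.23 rests on values near background. TH exceeded OO 11.6-fold (adjusted p = 6.30e-09), GC at least 11.4-fold (adjusted p = 2.37e-08), and CC at least 15.2-fold (adjusted p = 4.95e-10). Both probes were higher in TH, by 4.73 and 5.22, and so was the gene within slides 1 and 2, by 4.86 and 5.09. Over 30 alternative settings GRB10 stayed called higher in TH than in GC and CC, with differences from 1.76 to 5.14. The bounds on the fold thus hold for the main processing only. In OO the level was −5.02 ± 0.26, called above GC (adjusted p = 0.0381) with overlapping arrays. Only 2 GC arrays were well above background, so no fold against GC is given. The contrast of OO with the mean of the somatic cells was not called (−0.21 ± 0.21, adjusted p = 0.358). That contrast was called lower with normexp (−1.48, adjusted p = 1.50e-09) and with the deposited table (−0.72, adjusted p = 2.67e-05), so the place of OO depended on the background. Over all genes, the median of the contrast was −1.30 with normexp and −0.63 with the deposited table. Both values of GRB10 thus lay near the shift of the whole array.

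CDKN1C, an inhibitor of cyclin-dependent kinases known as p57, was high in TH and low in CC. Its level was 3.32, 2.72, 2.82, and 3.21 in TH, and −3.22, −2.68, −2.46, and −2.32 in CC, a 51.5-fold difference (adjusted p = 1.01e-06). In GC the replicates were at 0.30, 3.21, 0.08, and 0.69, so that replicate 2 reached the level of TH and the other 3 did not. The theca markers summed to 115 and 100 on GC replicates 2 and 3, and to 29.8 and 34.2 on replicates 1 and 4, and their part in the level of CDKN1C was not tested. The difference of TH from GC and CC was 3.82 ± 0.48 (adjusted p = 1.36e-05), and 4.17 ± 0.29 without GC replicate 2. In OO the level was 0.86, −0.47, −0.85, and −0.33. OO exceeded CC 5.55-fold (adjusted p = 0.000961), but did not differ from GC beyond the spread (adjusted p = 0.0538) or from the mean of the somatic cells (−0.67 ± 0.45, adjusted p = 0.182). The latter was called lower within slide 2 (−0.92, adjusted p = 0.0135) and with normexp (−0.82, adjusted p = 0.0448). Over all genes, the median of that contrast was −0.76 within slide 2 and −1.30 with normexp.

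DLK1, a membrane protein with repeats like those of epidermal growth factor that keeps progenitor cells undifferentiated, depended on the probe. As the median of both probes, its level was 0.99, −0.37, 0.15, and 0.32 in TH, against −2.52 ± 0.30 in GC, −2.71 ± 0.49 in CC, and −2.77 ± 0.31 in OO, and the difference of TH from GC and CC was 2.89 ± 0.26 (adjusted p = 3.59e-07). Probe B alone was at 0.06, −2.12, −1.43, and −0.999 in TH, at −5.71, −6.31, −7.20, and −6.91 in GC, and at −7.90 to −5.76 in CC. It was well above background on all 4 TH arrays and on none of the 8 arrays of GC and CC. By that probe, TH exceeded GC and CC at least 17.1-fold, with an adjusted p of 1.48e-07 over all probes. Probe A was at 1.93, 1.37, 1.74, and 1.63 in TH, at 1.22 to 1.67 in GC, and at 1.37 to 1.77 in CC, with a difference of 0.15 ± 0.20 (adjusted p = 0.677). The difference of TH was thus called on probe B and not on probe A. In OO, both were lower than in the mean of the somatic cells, by −1.33 (adjusted p = 1.08e-05) on probe A and by −0.90 on probe B, where the adjusted p was 0.0692. On probe B, however, the OO mean of −5.77 lay above those of GC (−6.53) and CC (−6.97), and only TH lay above OO. As the median of both probes, OO did not differ beyond the spread from GC (adjusted p = 0.459) or CC (adjusted p = 0.874).

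**Figure D3:**
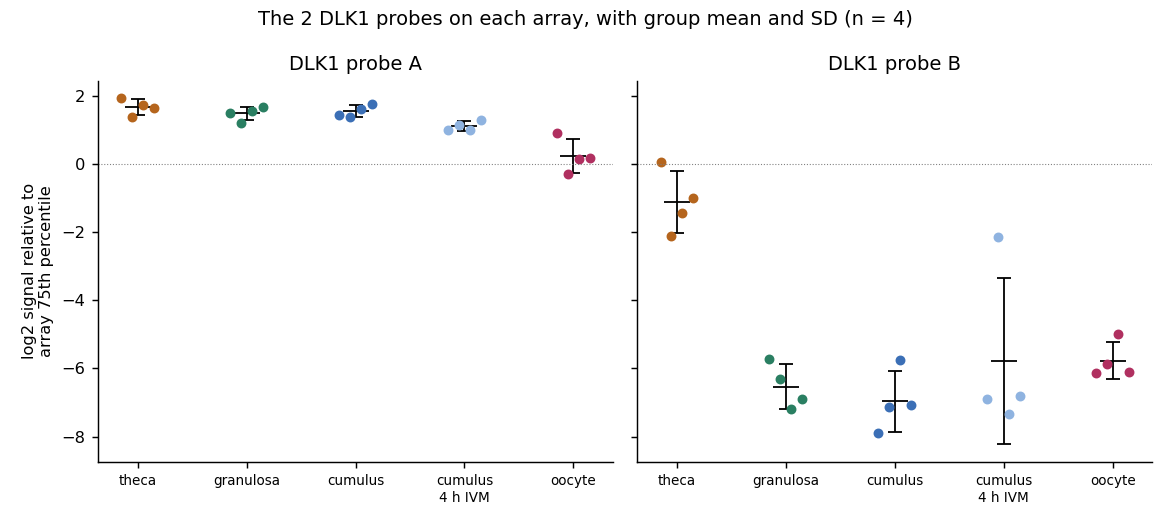
Level of DLK1 read from probe A (left) and probe B (right) on each array, as log2 signal relative to the 75th percentile of the array, by group. Points are arrays, and bars give the mean and SD of 4 arrays. On probe A the somatic arrays overlap, whereas on probe B the TH arrays lie above those of GC and CC, which were not well above background, and IVM replicate 2 is at −2.16.

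PLAGL1 was also called higher in TH than in GC and CC (1.20 ± 0.22, adjusted p = 0.000582). However, it was well above background on only 2 of 4 TH arrays and the bound on the fold stayed below 1, so no fold is given, and with normexp the difference was 0.02 (adjusted p = 0.909). MEST was lower in TH by −2.10 ± 0.22 (adjusted p = 2.39e-06), below all GC and CC arrays. PHLDA2 was lower by −1.59 ± 0.25 (adjusted p = 0.000131), which was a difference from CC, 8.41-fold (adjusted p = 7.33e-07), rather than from GC. NNAT, PEG10, and PEG3 were not called (−0.37, −0.23, and −0.45, adjusted p = 0.253, 0.510, and 0.210).

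The comparison of CC with GC asked how the cells around the oocyte differ from those on the wall. PHLDA2 was higher in CC, and CDKN1C, GRB10, NNAT, and PEG10 were lower, which made 5 of 9 genes, and the arrays of these same genes did not overlap. Over all genes 9.88% were called, 5.27% higher and 4.61% lower, and the arrays of 26% did not overlap. The median difference was −0.46 over the 9 genes and −0.16 over all genes. Within a slide, where each group had 2 arrays, PHLDA2 differed by 2.66 and 3.28, CDKN1C by −4.70 and −2.77, GRB10 by −1.93 and −1.24, NNAT by −1.44 and −1.31, and PEG10 by −1.48 and −1.23 on slides 1 and 2. Of these, only CDKN1C (adjusted p = 0.0140) and PHLDA2 (adjusted p = 0.0203) were called, both on slide 2.

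PHLDA2 was 7.83-fold higher in CC (2.97 ± 0.29, adjusted p = 1.77e-05). CC also carried more of the oocyte markers than GC, with 5 of 6 called higher. The median sum of these markers in CC was 0.360% of that in OO, and the median signal of PHLDA2 in CC was 10.2% of that in OO. After IVM, the marker sum was 0.109% of that in OO, with 4 of 6 markers called lower than in CC, and PHLDA2 was 8.94%. The part of oocyte RNA in the level of PHLDA2 in CC was not tested.

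CDKN1C was 13.3-fold lower in CC (−3.74 ± 0.55, adjusted p = 0.000527), and −3.02 ± 0.35 (adjusted p = 0.000155) without GC replicate 2. NNAT was lower by −1.38 ± 0.26 (adjusted p = 0.00303) and PEG10 by −1.35 ± 0.25 (adjusted p = 0.00290). GRB10 was called lower as well (−1.59 ± 0.26, adjusted p = 0.00113), but it was not well above background on any CC array and on only 2 GC arrays, and the bound on the fold stayed below 1. The theca markers were lower in CC, with 2 of 5 called, as were 3 of 4 markers of pericytes and smooth muscle, and their part in the lower levels of CDKN1C and GRB10 was not tested. MEST, PEG3, DLK1, and PLAGL1 were not called (−0.46, 0.70, −0.19, and −0.18, adjusted p = 0.334, 0.172, 0.748, and 0.721).

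The last comparison set CC after 4 h of IVM against CC. All 4 arrays of CC after IVM were on a slide of their own, while the CC arrays were on the other 2 slides, so that slide and maturation cannot be told apart. The 75th percentile of the intensity was also lower on that slide, 284.5–395.9 against 536.3–657.3 in CC, and the median difference was 0.37 both over all genes and over the 9 genes. GRB10, CDKN1C, and NNAT were higher after IVM and PEG3 and PEG10 were lower, 5 of 9 genes, against 45.8% of all genes called, 30.3% higher and 15.5% lower. The arrays of both groups did not overlap for 4 of the 9 genes, against 44% of all genes. Leukocyte markers were also higher after IVM, with 3 of 5 called and sums of 0.843–2.35 against 0.140–0.713, and of the 5 endothelial markers 3 were called higher and 1, TEK, lower (−3.71 in CC, −5.43 after IVM). PTPRC, the general leukocyte marker, and the endothelial CDH5 were not well above background on any array of either group, and PECAM1 was on only 1 array after IVM. The part of these markers in the differences after IVM was not tested.

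CDKN1C rose in these arrays from −2.67 ± 0.39 to −0.48 ± 1.27, a 4.56-fold difference (2.19 ± 0.55, adjusted p = 0.0120). The replicates after IVM were at −1.73, 0.87, 0.32, and −1.38, all above the highest CC array but widely spread. Without any 1 of these arrays, or of the CC arrays, the gene was still called, with differences from 1.74 to 2.60. GRB10 was at −6.69, −3.41, −4.50, and −3.23 after IVM, well above background on 3 of 4 arrays. It was at least 1.94-fold higher than in CC (adjusted p = 0.00933), where it was not well above background. Without IVM replicate 1 the measured difference was 3.54 in place of 2.80, and with quantile normalization it was 2.50 and no longer called (adjusted p = 0.0593).

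The other differences after IVM were less firm. NNAT was higher by 0.66 ± 0.22 (adjusted p = 0.0359) with overlapping arrays, close to the median of all genes, and lost the call in 11 of 20 alternative analyses. PEG3 was lower by −1.28 ± 0.27 (adjusted p = 0.00511) and PEG10 by −1.06 ± 0.31 (adjusted p = 0.0235). PEG3 was not well above background on any array after IVM, so that its bound stayed below 1 and no fold is given, and PEG10 was on only 1 of 4, and with normexp both differences turned to higher, 0.36 (adjusted p = 0.0118) and 0.41 (adjusted p = 0.00517). The median over all genes was 0.55 with normexp. PEG10 was also no longer called without CC replicate 1 or 3 or without IVM replicate 1 (adjusted p = 0.0532, 0.0616, and 0.0513). PHLDA2 (−0.16, adjusted p = 0.641), MEST (−0.52, adjusted p = 0.148), PLAGL1 (0.45, adjusted p = 0.104), and DLK1 (0.37, adjusted p = 0.602) were not called, although MEST was called lower in 3 of 20 alternatives, PHLDA2 lower in 1 of 20, and PLAGL1 higher in 3 of 19. For MEST and PLAGL1, 1 of these 3 was a fit with the slide as a random block. That fit cannot separate slide from IVM, as no slide held both groups. For DLK1 the difference was −0.25 (adjusted p = 0.501) without IVM replicate 2, the array on which probe B stood at −2.16 while on the other 3 it lay between −7.34 and −6.80. The same array had the highest sum of endothelial markers in the group, 0.586, against at most 0.220 on the other 3.

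The genes whose pattern over the 20 arrays was most like that of a member were looked up among 17429 other detected genes, by Pearson's r on the log2 levels. As the arrays form groups by cell type, r reflects mostly the differences between these groups. For PHLDA2 they were AK4 (0.98) and PLS1 (0.97), and for PLAGL1 they were AARD and SOSTDC1 (both 0.97). DLK1 was most like RXFP2 (0.94), the receptor of the theca hormone INSL3, and SLCO2B1 (0.92), while MEST was most like SLC22A16 (0.94) and TPD52L1 (0.91). ISYNA1 (0.93) was among those most like GRB10, and CDKN1C was most like XDH (0.90) and MD2 (0.89). For PEG10 the nearest named gene was SCRN3 (0.89), for PEG3 it was NARF (0.92), and the nearest of NNAT were transcripts without a gene name (0.99). Among the members, GRB10 went with CDKN1C (r = 0.82) and with DLK1 (r = 0.82), whereas NNAT ran against PLAGL1 (r = −0.88) and PHLDA2 (r = −0.85).

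Of 63 other genes reported as imprinted in human, mouse, or other mammals, 50 were found on the array. In OO, 17 of them were higher and 22 lower than in the somatic cells, against 32.9% and 38.3% of all genes, with a median difference of −0.68 (−0.52 over all genes). With normexp, 5 were higher and 38 lower, but that setting called 20543 of all 22550 genes, with a median difference of −1.30. Among the genes whose arrays did not overlap, those with the highest fitted differences were CALCR, the calcitonin receptor, CPA4, a carboxypeptidase, and DLX5, a homeobox factor. As CPA4 and DLX5 were not well above background on any somatic array, and CALCR on only 1 of 12, these differences are bounds. CALCR was at least 40.9-fold higher in OO (adjusted p = 5.61e-16), CPA4 at least 5.92-fold, and DLX5 at least 4.27-fold. Those with the lowest fitted differences were NAP1L5, the growth factor IGF2 (−6.67), and GATM, an enzyme of creatine synthesis (−5.93). NAP1L5 was not well above background on any OO array and was at least 41.6-fold lower there (adjusted p = 1.53e-11).

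In TH, 8 of the 50 genes were higher and 6 lower than in GC and CC, against 14.3% and 18.5% of all genes, with a median difference of −0.14 (−0.11 over all genes). Among the genes whose arrays did not overlap, those higher included TFPI2, an inhibitor of serine proteases, IGF2 (5.83), and DCN, which encodes decorin of the matrix (3.51). TFPI2 was well above background on 4 of the 8 arrays of GC and CC, and TH exceeded these cells at least 57.7-fold, with an adjusted p of 7.72e-09. Those lower, again without overlap, were GATM (−2.81), SLC22A3, a transporter of organic cations, which was at least 2.22-fold lower and well above background on 2 of 4 TH arrays, and GNAS, the stimulatory G protein (−0.90). In CC, 2 were higher than in GC, AMPD3 (1.41) and RB1 (0.68), and 8 were lower, with a median of −0.18 over the 50 genes (−0.16 over all genes, of which 5.27% were higher and 4.61% lower). For 2 of the 8, no GC array was well above background. Among the 8 were THSD7A, at least 3.22-fold lower and not well above background on any CC array, IGF2 (−3.15), and GATM (−1.70). After IVM, 11 were higher and 12 lower, against 30.3% and 15.5% of all genes, with a median of 0.34 (0.37 over all genes). Of the 11, 9 were not well above background on any array after IVM, ZNF597 among them, for which no fold is given. Higher were also TFPI2 (2.97, well above background on 1 of 4 arrays of CC) and NAP1L5 (0.996), and among the lower ones were NDN (−2.68), GATM (−2.33), and IMPACT (−2.30). The count of 11 was 2 with quantile normalization and 30 with normexp. Over all 22550 genes, these settings called 6377 and 17668 in either direction, with median differences of 0.014 and 0.55, against 10329 in the main fit.

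The factors that keep imprints in place were described as well. DPPA3, which protects the maternal genome from demethylation, was not well above background on any array of TH or GC and was at least 959-fold higher in OO than in the somatic cells (adjusted p = 9.36e-13). UHRF1, which brings the maintenance methyltransferase to the DNA, was higher by 4.83, DNMT1, that methyltransferase, by 2.23, ZNF445 by 1.41, ARID4A by 1.34, and CTCF by 0.75. Lower in OO were ZFP57, the zinc finger protein that holds methylation at imprinted regions (at least 3.44-fold, adjusted p = 5.50e-06, well above background on 1 of 4 OO arrays), ARID4B (−1.65), TRIM28, the corepressor that ZFP57 recruits (−0.99), and ZNF202, which was not well above background on any OO array and had a bound of 1.03-fold. All 10 factors were called, 6 higher and 4 lower, against 71.3% of all genes, with a median difference of 1.04. After IVM, 6 of 10 were called lower in CC and ARID4B was called higher (1.30), against 45.8% of all genes, on the slide of its own named above. Those lower were UHRF1 (−3.44), DPPA3 (−2.11), DNMT1 (−2.07), TRIM28 (−1.93), CTCF (−1.32), and ZNF202, which was not well above background on any array of either group. In the same comparison 4 of 6 oocyte markers were called lower. The median signal of DPPA3 was 0.141% of that in OO in CC and 0.0344% after IVM, beside 0.360% and 0.109% for the sum of the oocyte markers, and the part of oocyte RNA in these levels was not tested.

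**Figure D4:**
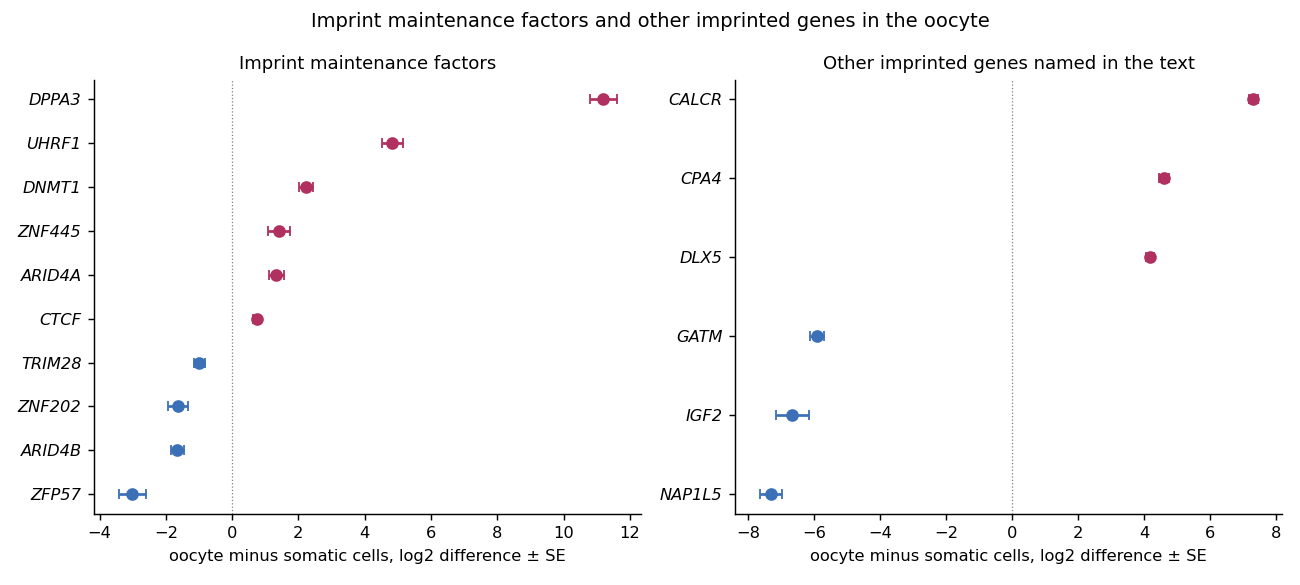
Log2 differences between OO and the mean of TH, GC, and CC (horizontal axes, bars ± SE from limma) for the 10 imprint maintenance factors (left) and the 6 other imprinted genes named for the oocyte (right). Red points were higher in OO and blue points lower. Points are fitted values, DPPA3 being at 11.19, CALCR at 7.31, ZFP57 at −3.01, and NAP1L5 at −7.31. For DPPA3, CALCR, CPA4, DLX5, NAP1L5, ZFP57, and ZNF202 the dim side was near background, so that only the bounds hold.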

How the data were processed

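Total RNA was labelled with Cy3 (200 ng) and hybridized to 1-color bovine Agilent arrays, 20 in all on 3 slides. For each array the authors deposited the Agilent Feature Extraction output (version 10.7.3.1), in which the intensity of each spot is given without normalization between arrays. They also deposited a table of log2 values, each column of which equals log2 of the median pixel signal minus the median of the array within 5e-09, so its background is not subtracted. Control and outlier-marked spots were left out here, log2 of the processed signal was set against the 75th percentile of 61325 probes, and the median over the spots of a gene was taken. Of 9779 unnamed probes, 734 were named by accession through the RefSeq table. Models were fitted with limma 3.58.1 in R 4.3.3 (with data.table), on 16 arrays of the cell types and on 8 arrays for IVM. Figures were made in Python 3.11.15 with matplotlib 3.10.9. The genes and lists were chosen with earlier results of these data known. The text names all 9 members, up to 3 rises and 3 falls of other imprinted genes per comparison without overlap, all imprint maintenance factors, and up to 2 genes most like each member, apart from 1 that is not reported here. Of the lists, the markers of each cell type serve only as a check. In simulated data for the 22550 genes, with 200 of them changed by 2 on the log2 scale, 88% were recovered in the oocyte contrast and 74.5% in that of IVM. With a change of 1, these shares were 41.5% and 0%. In the data, 71.3% of genes were called in the oocyte contrast and 45.8% in that of IVM. The adjustment was thus stricter in the simulation, and these shares do not give the sensitivity of the comparisons. The number of arrays limits the precision.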

Additional observations from a re-analysis of the deposited data

Results flagged for a closer look

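Of 45 sets of 4 arrays (9 genes in 5 groups), 2 held an array that stood apart by Dixon's test, and 2.25 would do so by chance. DLK1 on IVM replicate 2 was at −0.50, while the other 3 arrays of the group lay between −3.17 and −2.75. PHLDA2 on OO replicate 4 was at 4.37, while the other 3 lay between 4.31 and 4.32, so that this array stood apart only because the others were so close.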

How the results depend on the processing

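Of 1268 values of a gene under an alternative setting, 1204 kept their direction and their side of the threshold, 33 lost the call, 12 gained it, and 19 changed sign, 5 of them for a difference that had been called. With quantile normalization, the differences that changed sign were GRB10 in OO (0.016), DLK1 and PLAGL1 in CC against GC (0.033 and 0.19), and PLAGL1 after IVM (−0.11). With normexp they were PEG3 and PLAGL1 in OO (−0.21 and −0.23), PEG3 in CC against GC (−0.13), and PEG3 and PEG10 after IVM (0.36 and 0.41), so that 1 gene was called higher in OO and 6 were higher and 1 lower after IVM. With the deposited table they were DLK1 in CC against GC (0.11) and PEG10 and DLK1 after IVM (0.00347 and −0.17), with the brightest probe DLK1 and PLAGL1 in CC against GC (0.064 and 0.14) and DLK1 after IVM (−0.44), with 1 gene lower after IVM. Within slide 1 it was PEG10 in TH (0.21), and within slide 2 DLK1 and PLAGL1 in CC against GC (0.36 and 0.027). In CC against GC, 0 genes were called higher and 0 lower within slide 1 and 1 lower within slide 2, where each group had 2 arrays. For DLK1 after IVM, leaving out 1 array gave −0.25 (without IVM replicate 2) to 0.64. Over all genes, normexp called 20543 of 22550 in the oocyte contrast and 17668 in that of IVM, with median differences of −1.30 and 0.55.

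Leaving out 1 array gave 9 genes called by the F-test, 3 higher and 4 lower in OO, 4 higher and 2 to 3 lower in TH, 1 higher and 4 lower in CC, 2 to 3 higher and 1 to 2 lower after IVM, and 39 to 42 calls over the pairs. For the other imprinted genes the ranges were 15 to 17 higher and 20 to 26 lower in OO, 6 to 8 and 4 to 8 in TH, 2 to 3 and 4 to 8 in CC, and 3 to 14 and 10 to 12 after IVM, and for the maintenance factors 6 and 4. Their calls higher after IVM were 2 with quantile normalization, 30 with normexp, 23 with the deposited table, 2 with the filter on dim genes, and 21 with the slide as a random block, chosen after seeing the data. In OO, normexp called 5 of the other imprinted genes higher and 38 lower, and it called 20543 of all 22550 genes. In CC against GC, 5 were lower with the array median, 1 higher and 4 lower with normexp, 4 and 4 with the deposited table and with the brightest probe, 0 and 0 within slide 1, and 1 and 0 within slide 2. In TH, 4 were higher and 2 lower within slide 1 and 3 lower within slide 2. Of the maintenance factors, 2 were lower in OO within slide 1.

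Correlations of same-numbered arrays of the cell types ran from −0.27 to 0.44, with 13 of 24 over 0.1 and a median of 0.12, against −0.013 for arrays of different numbers. For IVM 0 of 4 were over 0.1. As not every pair was over 0.1, the numbers were not taken as pairs. With the replicate block, NNAT after IVM was no longer called (0.66, adjusted p = 0.0755), 4 other imprinted genes were higher after IVM, and no other call of a member changed. For IVM, no fixed slide block and no fit within a slide was possible, because no slide held both groups. With the slide as a fixed block, all 36 values over the cell types kept their calls. PLAGL1, PEG3, PEG10, and GRB10 lay near background in several groups, which limits what their differences there can show.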
